A study of Mus musculus with 4 samples.

Results

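Transcripts of 9 Toll-like receptor genes (*Tlr1*, *Tlr2*, *Tlr3*, *Tlr4*, *Tlr6*, *Tlr7*, *Tlr8*, *Tlr9* and *Tlr13*) and of *Cd14* were followed in mouse bone marrow-derived macrophage-like cells (BMMs). These 10 genes were chosen by symbol, as members of the receptor family and its co-receptor *Cd14*, and all 10 were found among the 23920 genes of the expression table. They were divided by the known site of the receptor protein into 5 surface genes (*Tlr1*, *Tlr2*, *Tlr4*, *Tlr6* and *Cd14*) and 5 endosomal genes (*Tlr3*, *Tlr7*, *Tlr8*, *Tlr9* and *Tlr13*). Of the 3 other mouse Toll-like receptors in the table, *Tlr5* was at 0.421 FPKM in the cKO library described next and at 0.813, 0.585 and 1.45 FPKM in the 3 control libraries, while *Tlr11* and *Tlr12* stayed under 0.2 FPKM in all 4 libraries.

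The study asked how IL-3, a cytokine made by activated T cells, keeps osteoclast precursors from becoming osteoclasts, and whether the transcription factor STAT5 is needed for it. One bulk RNA sequencing library was made per condition, and all 4 cultures received M-CSF (30 ng/mL), the growth factor that keeps BMMs alive. The mutant cells were *Stat5* cKO, in which the interferon-inducible Mx1-Cre transgene had deleted floxed *Stat5a* and *Stat5b*, and these cells received RANKL at 100 ng/mL together with IL-3 at 1 ng/mL (the cKO library). Control cells came from *Stat5* fl/fl littermates without the transgene and received both agents at the same doses (the control IL-3 library), RANKL without IL-3 (the control RANKL library) or M-CSF alone (the control M-CSF library). According to the labels the mice were C57BL/6 males aged 8 weeks and the cells were treated for 24 h, whereas the methods give a younger age for mice used in osteoclast cultures. Per the methods, mice of both genotypes had been injected with poly I:C, a synthetic RNA duplex that is itself a ligand of the *Tlr3* product, and the RANKL was a recombinant protein purified from bacteria. The Mx1 promoter acts in any cell that responds to interferon, so the deletion is not specific to macrophages.

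Toll-like receptors are membrane proteins that bind conserved microbial molecules and signal through adaptor proteins to NF-kB, MAP kinases and interferon regulatory factors. Surface receptors mainly bind components of microbial walls and membranes, while the endosomal group binds nucleic acids after delivery by the chaperone UNC93B1 and cleavage by lysosomal proteases. Macrophages and osteoclast precursors carry many of them, and Toll-like receptor ligands are known to act on osteoclast formation, with an outcome that depends on whether RANKL has been given before.

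*Tlr1* and *Tlr6* are neighbouring genes on the minus strand of chromosome 5, and their coding sequences share an identical run of 229 bases, which is shown because a read that lies wholly within it cannot be told apart between the genes. In GRCm38, the assembly also called mm10, it lies at chr5:64925537-64925765 in exon 4 of 4 of *Tlr1* transcript Tlr1-202 and at chr5:64953828-64954056 in exon 2 of 2 of *Tlr6* transcript Tlr6-201, both coding and both on the minus strand. Every base of it is shared, so none is set in capitals.
Tlr1 and Tlr6 shared run: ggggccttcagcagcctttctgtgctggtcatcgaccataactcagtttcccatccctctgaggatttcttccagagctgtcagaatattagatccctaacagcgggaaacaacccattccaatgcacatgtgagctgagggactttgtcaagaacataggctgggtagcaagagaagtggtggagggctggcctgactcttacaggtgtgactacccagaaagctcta
Of all stretches of 100 bases, 8.85% of those in *Tlr1* and 7.24% of those in *Tlr6* also occurred in the other gene, and none of those in the other 8 genes occurred in a second member. The values of *Tlr1* and *Tlr6* are therefore uncertain to the extent that the authors' software divided such reads between them. *Tlr7* and *Tlr8*, neighbours on chromosome X, shared no run longer than 13 bases.

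Promoter sequences (250 bases before the start site) were taken from RefSeq on GRCm38.p6 for 7 of the 10 genes, with *Tlr1* and *Tlr6* having 2 promoters each. Promoters of *Tlr4*, *Tlr7* and *Cd14* are not covered here. The 9 promoters were searched on both strands for 4 motifs. These were the core STAT palindrome TTCNNNGAA, the PU.1 element GAGGAAGT, the AP-1 element TGANTCA and an interferon response element made of a pair of GAAA blocks 2 bases apart. The STAT sequence occurred in 2 of the 9 promoters and in 7.02% of all 32851 promoters in the RefSeq table. It stood 106 to 98 bases before the start of *Tlr8* and 228 to 220 bases before the later start of *Tlr1*, where the *Tlr1* site lies within an exon of Tlr1-202. These promoters are shown because the study deleted STAT5 and because *Tlr1* and *Tlr8* had the lowest cKO values relative to control of the 10 genes. Of the other genes at least 2-fold lower in cKO, *Tlr6* had no STAT sequence in either promoter and *Tlr4* was not covered. Whether STAT5 acts at these sites was not tested. Capitals mark the motif, and each sequence reads 5′ to 3′ in the direction of the gene, on the minus strand at chrX:167264330-167264579 for *Tlr8*, chr5:64932908-64932937 for the *Tlr1* site and chr5:64933564-64933808 for the promoter before the earlier *Tlr1* start, which ends 6 bases before that start.
Tlr8 promoter, STAT motif in capitals: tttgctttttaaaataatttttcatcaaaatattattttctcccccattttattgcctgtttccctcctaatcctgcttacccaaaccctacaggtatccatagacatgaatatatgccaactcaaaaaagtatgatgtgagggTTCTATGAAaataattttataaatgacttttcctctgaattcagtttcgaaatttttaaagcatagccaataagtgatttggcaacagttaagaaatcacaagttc
Tlr1 later start, STAT motif in capitals: agtagctagcTTCATCGAAgcagagatgca
Tlr1 earlier start, PU.1 element in capitals: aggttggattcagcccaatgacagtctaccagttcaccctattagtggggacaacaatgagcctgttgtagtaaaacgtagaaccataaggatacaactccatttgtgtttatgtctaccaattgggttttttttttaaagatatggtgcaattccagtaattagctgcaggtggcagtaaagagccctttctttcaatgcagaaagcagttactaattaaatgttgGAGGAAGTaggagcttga
The PU.1 element stood 23 to 16 bases before the earlier start of *Tlr1*, and occurred in 2.44% of all promoters. *Tlr6* had overlapping interferon elements 116 to 101 bases before its later start (2.98% of all promoters held one), and *Tlr9* had an AP-1 element 58 to 52 bases before its start (6.75% of all promoters). None of the 4 motifs was found in the windows of *Tlr2*, *Tlr3* and *Tlr13*. A match states only that these letters are present.

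The promoter of *Tlr13*, the most abundant endosomal receptor, is shown as one without any of the 4 motifs. The cKO level of *Tlr13* was also below control, by 1.93-fold. The sequence lies at chrX:106143025-106143203 on the plus strand and covers the bases 250 to 72 before the RefSeq start, up to the first annotated exon.
Tlr13 promoter: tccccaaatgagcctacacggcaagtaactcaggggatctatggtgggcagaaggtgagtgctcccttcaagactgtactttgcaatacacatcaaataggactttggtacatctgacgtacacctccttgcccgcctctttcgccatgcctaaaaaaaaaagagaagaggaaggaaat

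The values are FPKM, fragments scaled to transcript length and to library size, so they allow comparison between genes of different length. The table does not name the unit, which was inferred from the software and the values. The 4 libraries summed to between 507691 and 544287 FPKM, with an estimated depth of 33.1 to 36.8 M fragments. The deleted genes were nearly absent from the cKO library, at 0.168 FPKM for *Stat5a* and 0.191 FPKM for *Stat5b*, against 9.89 to 12.0 and 7.80 to 10.8 FPKM in the 3 control libraries. Because each condition has 1 library, conditions could not be tested against each other, and every ratio compares 2 libraries. Ratios are given as the difference in log2(FPKM + 1), which understates changes of low genes, and higher and lower counts take genes that are at least 2-fold apart on this scale. The range after ± is an approximate 95% counting error from the estimated fragments, and it leaves out variation between cultures and mice. In bulk RNA, fewer cells of a type and less RNA per cell cannot be told apart.

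**Figure D1:**
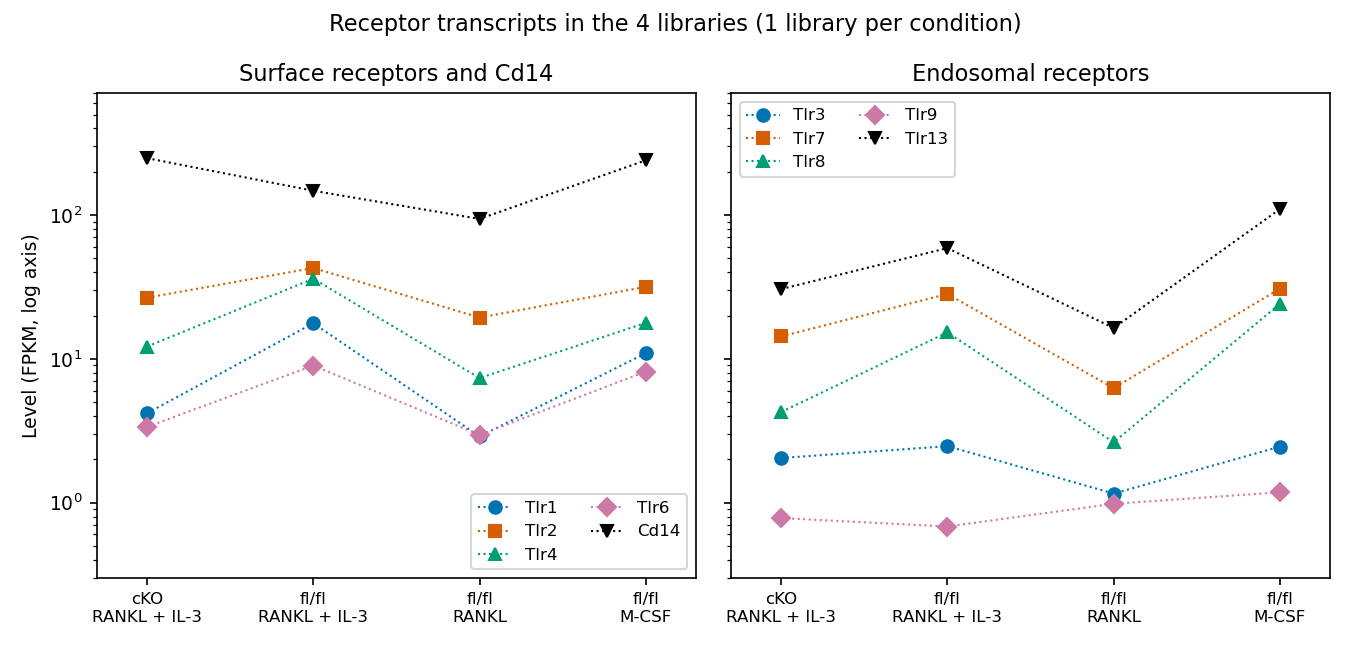
Levels of the 5 surface genes (left) and the 5 endosomal genes (right) in FPKM on a log axis, with 1 point per library and dotted lines only to connect the points of a gene. The lowest point lies in the control RANKL library for 9 of the 10 genes, and *Tlr9* stays near 1 FPKM throughout.

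The lowest level of 9 of the 10 genes was in the control RANKL library, *Tlr9* being the exception with its lowest level in the control IL-3 library. The highest level was in the control IL-3 library for *Tlr1*, *Tlr2*, *Tlr3*, *Tlr4* and *Tlr6*, in the control M-CSF library for *Tlr7*, *Tlr8*, *Tlr9* and *Tlr13*, and in the cKO library for *Cd14*. In the comparison of RANKL with M-CSF, 7 of the 10 genes were at least 2-fold lower and 0 were higher, where 6.88% of all 10763 genes that reached 1 FPKM in any library were lower and 5.44% were higher. In the comparison of RANKL with IL-3 against RANKL, 7 were higher and 0 lower, with 6.11% of all genes higher and 3.47% lower. In cKO against control, both given IL-3 on top of RANKL, 4 were lower and 0 higher, with 4.28% of all genes lower and 2.11% higher. Neighbouring comparisons share a library, so their counts do not add up as separate evidence.

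Markers of cell type moved with these results, and their part in the results was not tested. The 12 macrophage markers summed to 12618 FPKM in the cKO library, against 18192 FPKM with RANKL and IL-3, 8449 FPKM with RANKL and 23791 FPKM with M-CSF in control cells, mostly from *Lyz2*, and 11 of 12 were lower for RANKL, 7 were higher and 1 was lower for IL-3, and 5 were lower and 1 was higher for cKO. The exception in both of these was *Cx3cr1*. The 10 osteoclast markers summed to 518 FPKM in the cKO library, against 141, 1277 and 45.9 FPKM in the control libraries in the same order, the reverse order of libraries. Of the 8 that were measured, 7 were higher for RANKL, 7 were lower for IL-3 and 5 were higher for cKO, and *Calcr* was at 0 in all 4 libraries. The 9 neutrophil markers found, of 10, summed to 775 FPKM in the cKO library, against 1221, 744 and 1308 FPKM, with 1 lower for RANKL (*Mmp8*), the same 1 higher for IL-3, and 2 lower in cKO (*Mmp8* and *Elane*). For conventional dendritic cells the sum was 129 FPKM in the cKO library, against 594, 118 and 173 FPKM, with *Itgax*, *Cd74* and *H2-Ab1* higher with IL-3 but lower in cKO, while the defining genes *Flt3*, *Zbtb46* and *Clec9a* were under 0.5 FPKM in every library and *Xcr1* was at 0.333 FPKM in the cKO library, against 1.06, 0.604 and 0.567 FPKM. For plasmacytoid dendritic cells, which are rich in *Tlr7* and *Tlr9*, the sum was 16.2 FPKM in the cKO library, against 44.0, 10.9 and 64.0 FPKM. Most of it came from *Irf8* and *Tcf4*. *Irf8* was the 1 gene of 3 measured that was lower for RANKL, higher for IL-3 and lower for cKO, at 10.2 FPKM in the cKO library, against 38.2, 5.30 and 54.3 FPKM in the control libraries. *Tcf4* was at 4.61 FPKM in the cKO library, against 3.83, 4.07 and 6.67 FPKM, and *Siglech* and *Ccr9* were under 0.5 FPKM. B cell markers summed to 0.596 FPKM in the cKO library, against 1.42, 1.11 and 3.50 FPKM in the control libraries in the same order. Only 1 of the 8 (*Cd79b*) reached 1 FPKM and was counted, and it was under 2-fold in all 3 comparisons. T and NK cell markers summed to at most 0.632 FPKM with 3 at 0 in every library. Mast cell and basophil markers summed to 1.45 to 3.38 FPKM, with *Gata2* higher with RANKL and in cKO and *Mcpt8* higher with IL-3.

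*Tlr4* encodes the receptor for bacterial lipopolysaccharide. Its level was 12.2 FPKM in the cKO library, against 36.1 FPKM in the control IL-3 library, 7.34 FPKM with RANKL and 17.8 FPKM with M-CSF. The level was highest with IL-3 in control cells, where it exceeded the M-CSF level, and the cKO value lay between those of the RANKL and M-CSF libraries. In FPKM, RANKL was 2.42-fold lower than M-CSF (log2 difference −1.17 ± 0.09), RANKL with IL-3 was 4.91-fold higher than RANKL (2.15 ± 0.09), and cKO was 2.97-fold lower than control (−1.49 ± 0.07).

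*Cd14* encodes the lipopolysaccharide co-receptor that hands the ligand to the TLR4 complex, and it was the most abundant of the 10 transcripts in all 4 libraries. Its level was 249 FPKM in the cKO library, against 147 FPKM in the control IL-3 library, 93.9 FPKM with RANKL and 240.2 FPKM with M-CSF. The cKO library was the highest, close to the M-CSF library, so *Cd14* was placed differently from the 4 surface receptors. The cKO value was 1.69-fold that of the control (0.75 ± 0.04), which is under the 2-fold mark, and placed *Cd14* 481st from the top among 10763 genes. RANKL was 2.56-fold lower than M-CSF (−1.35 ± 0.05), and RANKL with IL-3 was 1.57-fold the RANKL level (0.65 ± 0.05). The number of *Cd14* FPKM per *Tlr4* FPKM was 20.4 in the cKO library, against 4.09 with RANKL and IL-3, 12.8 with RANKL and 13.5 with M-CSF in control cells. It was lowest in the control library with IL-3.

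*Tlr2* encodes the receptor that pairs with TLR1 or TLR6 to bind bacterial lipoproteins, and it was the most abundant surface Toll-like receptor in all 4 libraries. Its level was 26.6 FPKM in the cKO library, against 42.8 FPKM in the control IL-3 library, 19.4 FPKM with RANKL and 31.7 FPKM with M-CSF. The order of the libraries was that of *Tlr4*, with smaller gaps. RANKL with IL-3 was 2.21-fold higher than RANKL (1.11 ± 0.07), while RANKL against M-CSF (−0.68 ± 0.08) and cKO against control (−0.67 ± 0.06) stayed under 2-fold.

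*Tlr1* encodes the partner of TLR2 for triacylated lipopeptides. Its level was 4.18 FPKM in the cKO library, against 17.7 FPKM in the control IL-3 library, 2.89 FPKM with RANKL and 10.9 FPKM with M-CSF. It had the widest spread of the surface genes, with cKO and RANKL low and the control IL-3 library high. RANKL was 3.79-fold lower than M-CSF (−1.62 ± 0.15), RANKL with IL-3 was 6.12-fold higher than RANKL (2.26 ± 0.14), and cKO was 4.23-fold lower than control (−1.85 ± 0.12). Among 10763 genes, *Tlr1* ranked 116th from the top for IL-3 and 137th from the bottom for cKO. It was deposited as 2 transcripts. NM_030682 was at 1.59 FPKM in the cKO library, against 11.5, 1.45 and 6.52 FPKM with RANKL and IL-3, RANKL, and M-CSF in control cells, and NM_001276445 was at 2.59 FPKM in the cKO library, against 6.20, 1.44 and 4.43 FPKM in the same 3 control libraries. Both were highest with IL-3 in control cells, and the division between them is an estimate of the software.

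*Tlr6* encodes the partner of TLR2 for diacylated lipopeptides. Its level was 3.36 FPKM in the cKO library, against 8.98 FPKM in the control IL-3 library, 2.95 FPKM with RANKL and 8.15 FPKM with M-CSF. The libraries formed a low pair, cKO and RANKL, and a high pair, control IL-3 and M-CSF. RANKL was 2.76-fold lower than M-CSF (−1.21 ± 0.13), RANKL with IL-3 was 3.04-fold higher than RANKL (1.34 ± 0.13), and cKO was 2.67-fold lower than control (−1.19 ± 0.13).

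*Tlr13* encodes the endosomal receptor for bacterial ribosomal RNA, which is present in mice and not in humans, and it was the most abundant endosomal receptor in all 4 libraries. Its level was 30.5 FPKM in the cKO library, against 58.9 FPKM in the control IL-3 library, 16.4 FPKM with RANKL and 109.8 FPKM with M-CSF. M-CSF alone was far above the rest, and the control IL-3 library did not reach it. RANKL was 6.70-fold lower than M-CSF (−2.67 ± 0.06), and RANKL with IL-3 was 3.59-fold higher than RANKL (1.78 ± 0.06). The cKO library was 1.93-fold below control (−0.92 ± 0.05), just under the 2-fold mark, which it passed when libraries were scaled to a common median ratio (−1.06). *Tlr13* made up 58.8% of the summed endosomal FPKM in the cKO library, against 55.8%, 59.8% and 65.3% in the control libraries with RANKL and IL-3, RANKL, and M-CSF.

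*Tlr7* encodes a receptor for uridine-rich RNA. Its level was 14.3 FPKM in the cKO library, against 28.2 FPKM in the control IL-3 library, 6.25 FPKM with RANKL and 30.8 FPKM with M-CSF. Control cells with IL-3 and with M-CSF were close to each other, and the cKO library lay between them and the RANKL library. RANKL was 4.92-fold lower than M-CSF (−2.13 ± 0.10), RANKL with IL-3 was 4.52-fold higher than RANKL (2.01 ± 0.10), and cKO was 1.98-fold below control (−0.93 ± 0.07), a value that passed 2-fold under the same scaling (−1.07). It was deposited as 5 transcripts, of which NM_133211 was the largest in all 4 libraries, at 9.25 FPKM in the cKO library, against 20.4, 4.28 and 20.7 FPKM in control cells with RANKL and IL-3, RANKL, and M-CSF.

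*Tlr8* encodes the neighbouring and related RNA receptor. Its level was 4.26 FPKM in the cKO library, against 15.3 FPKM in the control IL-3 library, 2.63 FPKM with RANKL and 24.1 FPKM with M-CSF. Of the 10 genes it had the largest relative gap between RANKL and M-CSF. RANKL was 9.17-fold lower than M-CSF (−2.79 ± 0.13), which placed it 44th from the bottom of 10763 genes, with *Tlr13* 57th and *Tlr7* 133rd. RANKL with IL-3 was 5.81-fold higher than RANKL (2.17 ± 0.13), and cKO was 3.58-fold lower than control (−1.63 ± 0.12). *Tlr8* was thus the only endosomal gene counted as lower in cKO at 2-fold. The ratio of *Tlr7* to *Tlr8* FPKM was 3.35 in the cKO library, against 1.85 with RANKL and IL-3, 2.38 with RANKL and 1.28 with M-CSF in control cells.

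*Tlr3* encodes the receptor for duplex RNA, and *Tlr9* the receptor for unmethylated CpG DNA. The *Tlr3* level was 2.04 FPKM in the cKO library, against 2.47 FPKM in the control IL-3 library, 1.16 FPKM with RANKL and 2.45 FPKM with M-CSF. Only the RANKL library was low. In FPKM it was 2.12-fold below M-CSF and 2.14-fold below RANKL with IL-3, but on the log2(FPKM + 1) scale both gaps were under 2-fold (−0.68 ± 0.16 and 0.69 ± 0.15). The cKO level was 1.21-fold below control, a log2 difference of −0.19 with a counting error of 0.14. *Tlr9* was at 0.78 FPKM in the cKO library, against 0.68 FPKM in control cells with RANKL and IL-3, 0.98 FPKM with RANKL and 1.18 FPKM with M-CSF, from an estimated 87 to 136 fragments. Its log2 differences were −0.14 ± 0.18 with RANKL against M-CSF, −0.24 ± 0.18 when IL-3 was added and 0.08 ± 0.17 in cKO against control. The IL-3 value alone was outside the counting error, by a small margin, where the median of all genes was −0.15. With libraries scaled to a common median ratio, the IL-3 value was −0.16, within ± 0.18. The RANKL value was then −0.22, outside ± 0.18, so neither is settled at this depth. No difference was detectable for cKO.

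**Figure D2:**
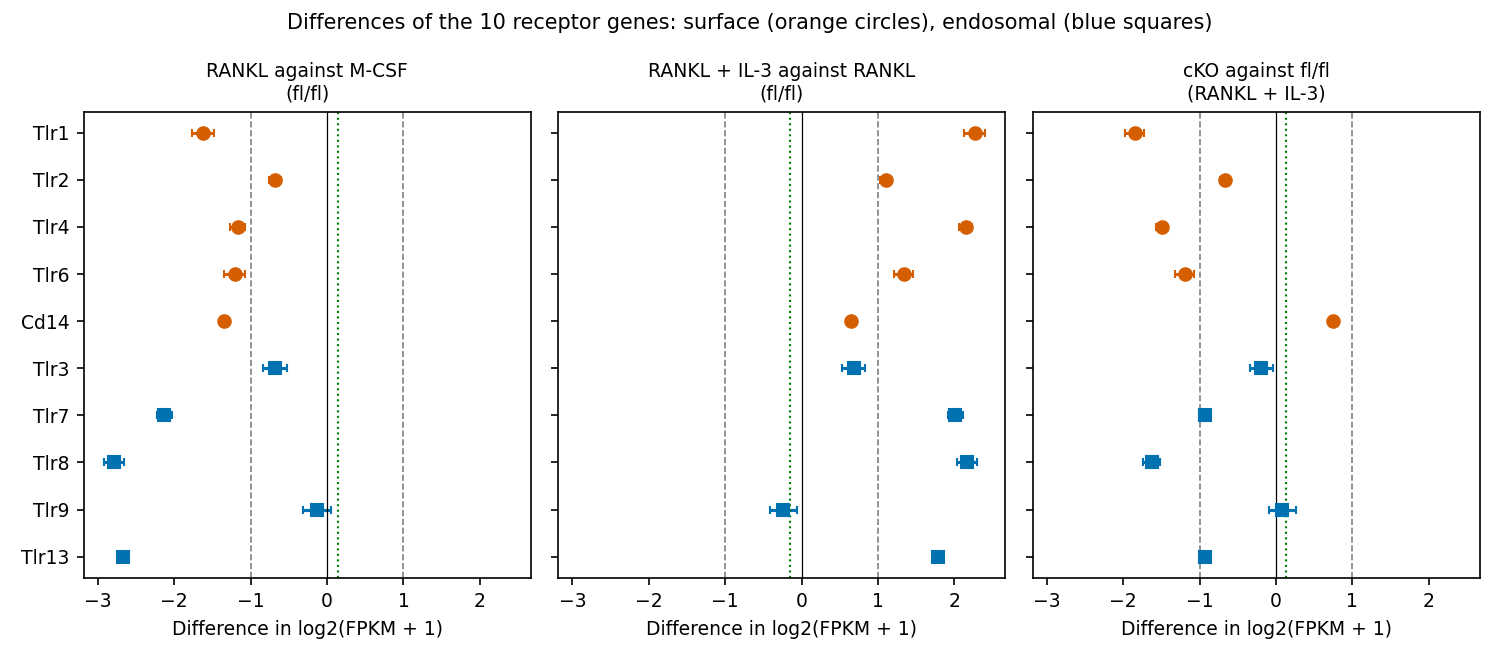
Difference in log2(FPKM + 1) of the 10 genes for RANKL against M-CSF, RANKL with IL-3 against RANKL, and cKO against *Stat5* fl/fl; bars are approximate 95% counting errors, dashed lines mark 2-fold and the green dotted line the median of 10763 genes. *Tlr8* and *Tlr13* lie farthest left for RANKL, and *Cd14* is the one gene clearly right of 0 for cKO.

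Set against each other as classes, surface and endosomal genes differed most in the RANKL comparison. The median log2 difference of RANKL against M-CSF was −1.21 for the 5 surface genes and −2.13 for the 5 endosomal genes, beside 0.14 for all 10763 genes, with 4 surface and 3 endosomal genes at least 2-fold lower. The ranges overlapped, −1.62 to −0.68 for surface and −2.79 to −0.14 for endosomal genes, with *Tlr3* and *Tlr9* at the near end and *Tlr7*, *Tlr8* and *Tlr13* at the far end of the endosomal range. For RANKL with IL-3 against RANKL, the medians were 1.34 and 1.78, beside −0.15 for all genes, with 4 surface and 3 endosomal genes higher. The surface median without *Cd14* was 1.74 in this comparison, close to the endosomal median. For cKO against control the class medians were −1.19 and −0.92, beside 0.13 for all genes, with 3 surface genes and 1 endosomal gene lower. *Tlr9*, at 0.68 FPKM in the control IL-3 library, could not be counted as lower on this scale, whatever its cKO level. Without *Cd14* the surface median was −1.34. *Tlr7* (−0.93) and *Tlr13* (−0.92) narrowly missed 2-fold and passed it when libraries were scaled to a common median ratio, so these counts depend on scaling. Members are not replicates, and these differences between classes carry no test.

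The levels reached with IL-3 relative to M-CSF alone placed the 4 surface Toll-like receptors above the other genes, *Cd14* included. This contrast is outside the 3 comparisons above, and no value over all genes was computed for it. The control IL-3 library was at 203% of the control M-CSF level for *Tlr4* (95% counting interval 193 to 213%), 161% for *Tlr1*, 135% for *Tlr2* and 110.1% for *Tlr6* (101 to 120%). It was 101% for *Tlr3* (87.4 to 116%), 91.8% for *Tlr7*, 63.4% for *Tlr8*, 57.8% for *Tlr9* (44.2 to 75.7%) and 53.6% for *Tlr13*. The 4 surface receptors thus all lay above the 5 endosomal receptors, although *Tlr6* and *Tlr3* had overlapping counting intervals, and *Cd14* at 61.4% lay within the endosomal range. The cKO library was at 68.4% of the control M-CSF level for *Tlr4*, 38.2% for *Tlr1*, 84.0% for *Tlr2*, 41.2% for *Tlr6* and 103% for *Cd14*. The endosomal genes were at 83.3% for *Tlr3*, 46.5% for *Tlr7*, 17.7% for *Tlr8*, 66.2% for *Tlr9* and 27.8% for *Tlr13*, so the classes overlapped there. This last contrast differs in genotype as well as in cytokines. So does that of the cKO library with the control RANKL library, where the cKO level in FPKM was 2.65-fold for *Cd14*, 2.29-fold for *Tlr7*, 1.14-fold for *Tlr6* and 0.795-fold for *Tlr9*, with the other 6 genes between 1.37-fold and 1.86-fold.

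Summed over genes, the 4 surface receptors without *Cd14* reached 46.3 FPKM in the cKO library, against 106 FPKM with RANKL and IL-3, 32.5 FPKM with RANKL and 68.5 FPKM with M-CSF in control cells. The 5 endosomal receptors reached 51.9 FPKM in the cKO library, against 106, 27.4 and 168 FPKM in the same control libraries. The endosomal share of all summed receptor FPKM was 52.9% in the cKO library, against 50.0% with RANKL and IL-3, 45.7% with RANKL and 71.1% with M-CSF. The M-CSF library stood apart by its endosomal excess, most of which was *Tlr13*. Within the surface class, the ratio of *Tlr4* to *Tlr2* FPKM was 0.457 in the cKO library, against 0.843 with RANKL and IL-3, 0.379 with RANKL and 0.562 with M-CSF.

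**Figure D3:**
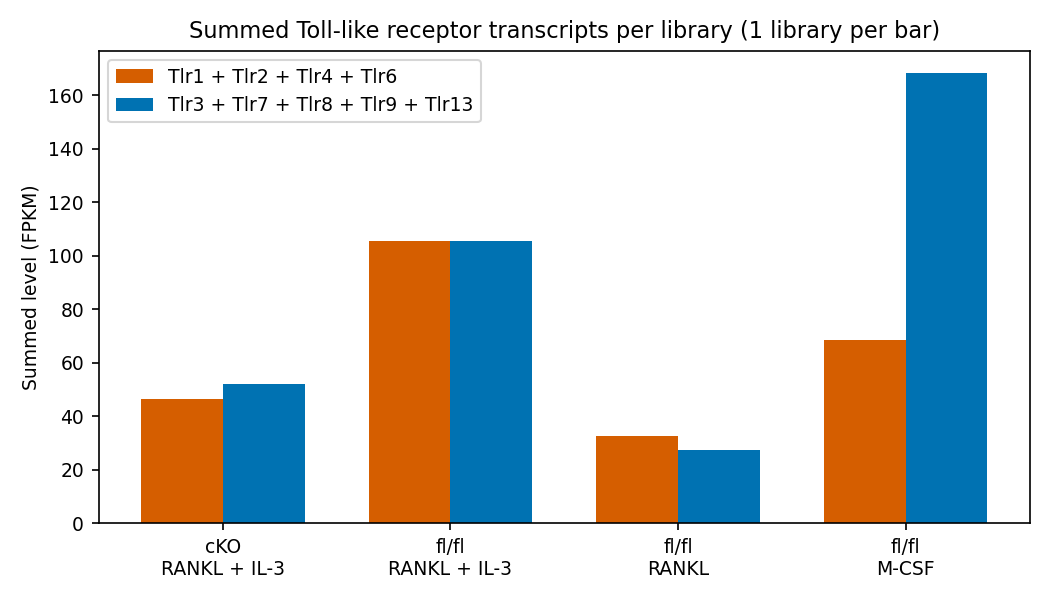
Summed FPKM of the 4 surface Toll-like receptors without *Cd14* (orange) and of the 5 endosomal receptors (blue), with 1 library per bar and no error bars. Only with M-CSF alone does the endosomal sum, 168 FPKM, stand far above the surface sum, 68.5 FPKM.

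Over all 10763 genes, 6.88% were lower and 5.44% higher for RANKL, and 6.11% were higher and 3.47% lower for IL-3. For cKO, 4.28% were lower and 2.11% higher, and the all-gene medians were 0.14, −0.15 and 0.13. The counts and medians of this and the following lists stand beside these values. Among 10 accessory genes of surface receptors, 4 were lower with RANKL than with M-CSF and 0 higher. Those 4 were higher with IL-3 and 0 were lower, while 1 was lower in cKO and 0 were higher. The medians were −0.89, 0.64 and −0.56. The 4 were *Ly86*, which encodes the partner of the receptor homologue CD180, *Cd36*, a scavenger receptor that assists TLR2, *Itgam*, an integrin chain, and *Ncf1*, an oxidase subunit. *Itgam* was at 141 FPKM in the cKO library, against 351 FPKM with RANKL and IL-3, 103 FPKM with RANKL and 219.6 FPKM with M-CSF in control cells, and it was the gene lower in cKO. *Ly86* was at 44.5 FPKM in the cKO library, against 73.4, 22.7 and 133 FPKM in the control libraries in the same order. *Ly96*, chosen after its values were seen because its product MD-2 forms the lipopolysaccharide-binding complex with TLR4, was at 11.8 FPKM in the cKO library, against 19.0, 10.3 and 21.5 FPKM, and stayed under 2-fold on the log2(FPKM + 1) scale in all 3 comparisons, by a small margin for RANKL (−0.99).

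Among 18 genes for trafficking and processing of endosomal receptors and their ligands, 5 were lower and 1 was higher for RANKL, 5 were higher and 1 was lower for IL-3, and 3 were lower and 1 was higher for cKO, with medians of −0.46, 0.62 and −0.37. *Slc15a3*, an endolysosomal peptide and histidine transporter, was at 38.6 FPKM in the cKO library, against 209.9 FPKM with RANKL and IL-3, 12.3 FPKM with RANKL and 143 FPKM with M-CSF in control cells. It was highest in the control IL-3 library and lowest in the control RANKL library. The protease *Lgmn* and the exonuclease *Pld4* were likewise lower with RANKL and higher with IL-3, as was *Rnf128*, which was also lower in cKO. *Ctsb* was lower with RANKL, and *Ctss* was higher with IL-3 but lower in cKO. *Ctsk*, a collagen-degrading protease that is also an osteoclast marker, went the other way in all 3 comparisons. *Unc93b1*, the chaperone of endosomal receptors, chosen after its values were seen, was at 105 FPKM in the cKO library, against 164, 95.5 and 166 FPKM in the control libraries, and was under 2-fold in all 3 comparisons.

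Of the 23 genes of proximal signalling, 1 was lower and 1 higher for RANKL, 1 was higher and 0 lower for IL-3, and 0 were either way for cKO. These counts were near the shares over all genes. The medians were 0.02, −0.14 and 0.15, beside 0.14, −0.15 and 0.13 for all genes. *Irf5*, a transcription factor activated downstream of MyD88, was lower with RANKL, at 68.9 FPKM against 142 FPKM with M-CSF. *Traf3*, an adaptor ubiquitin ligase, was higher with RANKL, at 17.1 FPKM against 7.59 FPKM with M-CSF. *Ikbke*, a kinase of the interferon pathway, was higher with IL-3, at 33.5 FPKM with RANKL and IL-3 against 14.7 FPKM with RANKL. The adaptor *Myd88*, chosen after its values were seen, was at 51.0 FPKM in the cKO library, against 43.6, 45.9 and 37.5 FPKM in the control libraries, all within 2-fold.

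Of 19 measured negative regulators, 4 were higher and 4 lower for RANKL, 3 were higher and 0 lower for IL-3, and 0 were higher and 3 lower for cKO, with medians of −0.10, 0.16 and −0.14. The 4 higher with RANKL were *Nfkbia* and *Tnip1*, which restrain NF-kB signalling, *Tnfaip3* and *Socs1*. *Nfkbia* was at 198 FPKM with RANKL against 45.2 FPKM with M-CSF. The 4 lower were *Il1rl1*, *Lilrb4*, *Atf3* and *Trem2*, and the first 3 were higher with IL-3 but lower in cKO. *Atf3*, a repressor induced by Toll-like receptor signalling, was at 6.92 FPKM in the cKO library, against 54.4 FPKM with RANKL and IL-3, 4.94 FPKM with RANKL and 52.7 FPKM with M-CSF in control cells.

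Of 16 other pattern recognition genes, 6 were lower for RANKL, 6 were higher for IL-3 and 4 were lower for cKO, with 0 in the opposite direction and medians of −0.43, 0.48 and −0.19. The 4 lower in cKO were the lectin receptor genes *Clec4n*, *Clec7a* and *Mrc1* and the cytosolic DNA pathway gene *Tmem173*. *Clec4n*, which encodes the fungal receptor Dectin-2, was at 29.7 FPKM in the cKO library, against 683 FPKM with RANKL and IL-3, 19.6 FPKM with RANKL and 49.9 FPKM with M-CSF in control cells. It was high in the control IL-3 library alone.

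Of 25 genes known to be induced by Toll-like receptor ligands, 18 reached 1 FPKM. With RANKL 5 were lower and 1 higher, with IL-3 10 were higher and 0 lower, and in cKO 7 were lower and 2 higher, with medians of −0.42, 1.01 and −0.38. The chemokine gene *Ccl4* was at 38.1 FPKM in the cKO library, against 470 FPKM with RANKL and IL-3, 3.68 FPKM with RANKL and 85.4 FPKM with M-CSF in control cells. *Cxcl2* was at 6.72 FPKM in the cKO library, against 69.9, 1.80 and 3.00 FPKM. Both were highest in the control IL-3 library. The 2 genes higher in cKO were *Cxcl10* and *Saa3*, and *Cxcl10* was also the one higher with RANKL. *Il6*, *Il12b*, *Ifnb1* and *Nos2* were among the genes of this list that stayed under 1 FPKM in all 4 libraries. No Toll-like receptor ligand is named among the culture additions, the RANKL was purified from bacteria, and the presence of a ligand was not tested.

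**Figure D4:**
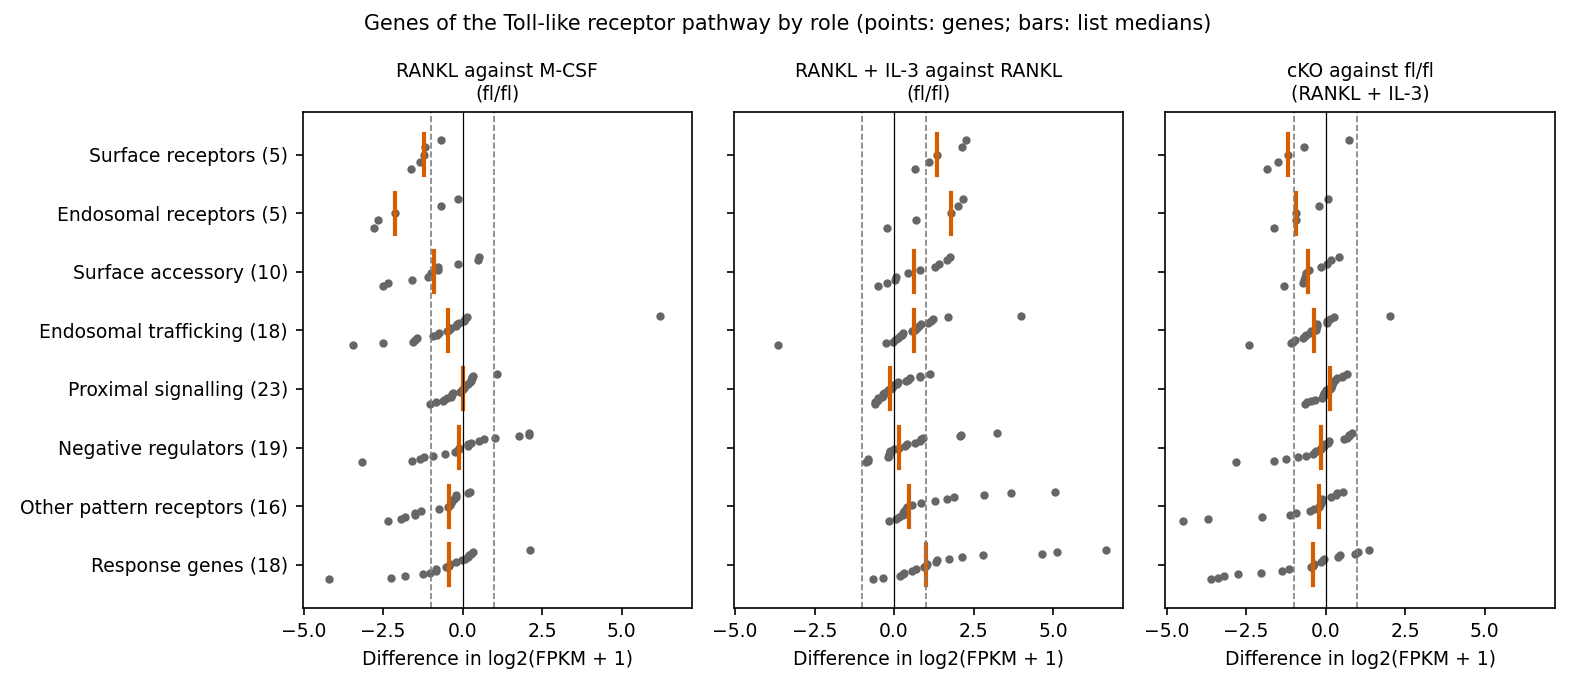
Difference in log2(FPKM + 1) of each measured gene (grey points) in 8 lists of the Toll-like receptor pathway for the 3 comparisons, with the list median in orange, dashed lines at 2-fold, and the number of genes after each list name. The medians of both receptor classes lie farther from 0 than that of proximal signalling in each comparison.

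For the 8 members that reached 5 FPKM in any library, which leaves out *Tlr3* and *Tlr9*, the genes with the most similar levels were found by the distance between log2(FPKM + 1) values centred on each gene's mean, over the 4 libraries and 8138 genes. *Tlr1* was closest to *Litaf* (0.04), *Rhob* and *Il4ra* (both 0.18). *Tlr2* was closest to *Gch1* (0.07), *Rhbdf2* (0.08) and *B4galt5* (0.09), and *Tlr4* to *Cebpb* (0.14), *Il1rl1* (0.16) and *Slc31a2* (0.18). For *Tlr6* they were *Slc48a1* (0.09), *Sla* (0.10) and *Aoah* (0.12). None of the 8 members searched had another member among its 3 closest genes. For the endosomal genes, *Tlr7* was closest to *Ets2* (0.14), *Nlrp3* (0.14) and *Ctsc* (0.19), *Tlr8* to *Icosl* (0.09), *Hmox1* (0.24) and *Rcsd1* (0.30), and *Tlr13* had *Etv5* (0.09) and *Iqgap2* (0.12) among its closest genes. *Cd14* had the most distant neighbours, *Dmwd* (0.24), *Pla2g5* (0.33) and *Ccnd1* (0.45). With 4 values per gene such likeness is a description of these libraries.

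In GRCm38 with GENCODE M21, *Tlr1* lies at chr5:64924679-64933563 and *Tlr6* at chr5:64952031-64960097, and the other genes lie at chr3:83836272-83841767 (*Tlr2*, minus strand), chr4:66827584-66930284 (*Tlr4*, plus), chr8:45395665-45411080 (*Tlr3*, minus), chr9:106222598-106226883 (*Tlr9*, plus), chr18:36725067-36726798 (*Cd14*, minus) and, on chromosome X, 106143204 to 106160493 (*Tlr13*, plus), 167242696 to 167264329 (*Tlr8*, minus) and 167304929 to 167330558 (*Tlr7*, minus).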

How the data were processed

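Bulk RNA from 4 BMM cultures, 1 library per condition, was sequenced by the authors, who used TopHat2 2.0.13 for alignment to mm10 and Cufflinks 2.2.1 for the deposited FPKM values of RefSeq transcripts (submitters' processing notes and methods). Options of either tool: not given in the sources used here. All 4 library columns were matched to samples by their labels.

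Transcripts were summed per gene ID. Ratios were taken on log2(FPKM + 1), and shares over all genes used the 10763 genes that reached 1 FPKM in any library, without small RNA genes recognised by symbol. Depth was estimated from the steps of low values multiplied by transcript length, where 69.7% to 70.9% of values lay within 0.2 steps of a whole number and even spacing would give 40%. No p-value was computed. The 10 genes are all named, and from each other list up to 4 genes with the largest differences among those that reached 5 FPKM in any library could be named, with others marked as chosen after their values were seen or named because they make up a count. The genes named as absent or near 0 were also picked after their values were seen. The members and all lists were chosen with earlier results of these data known. The ratio step was also run on simulated data with counting noise only and changes of 4-fold or more in genes at 5 FPKM or more. That run cannot judge calls near 2-fold, calls of lower genes or variation between cultures. Alternatives changed the pseudocount (0.1 FPKM), the scaling (to a common median ratio or upper quartile), the minimum (none or 5 FPKM), the threshold (1.5-fold or 4-fold), the treatment of small RNA genes (kept) and the summing (most abundant transcript per gene). The software was Python 3.11.15 with matplotlib 3.10.9, scipy 1.17.1, pandas 2.3.3 and numpy 2.4.6. One gene among those closest to *Tlr13* is not reported here.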

Additional observations from a re-analysis of the deposited data

How the results depend on the processing

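All 30 member ratios (10 genes in 3 comparisons) kept their sign under a pseudocount of 0.1 FPKM, both scalings and the most abundant transcript per gene. Median-ratio scaling and upper-quartile scaling moved *Tlr7* (−1.07 and −1.02) and *Tlr13* (−1.06 and −1.01) past 2-fold lower in cKO, which makes 6 members lower in place of 4, and the most abundant transcript alone did so for *Tlr7* (−1.06). A pseudocount of 0.1 FPKM moved *Tlr3* past 2-fold for RANKL (−1.02) and for IL-3 (1.03), and it moved the median of surface minus endosomal genes to −0.27 for IL-3, against −0.45, and to −0.45 for cKO, against −0.27. At 4-fold, 3 members were lower for RANKL, 4 were higher for IL-3 and 0 were lower for cKO; at 1.5-fold, 7 were lower and 1 (*Cd14*) higher in cKO. Over all genes, a pseudocount of 0.1 FPKM raised the number lower with IL-3 to 560, against 373, and higher in cKO to 379, against 227. Counts higher and lower were 1680 and 1491 (RANKL), 1303 and 1371 (IL-3) and 907 and 957 (cKO) at 1.5-fold, and 124 and 162 (RANKL), 175 and 74 (IL-3) and 34 and 108 (cKO) at 4-fold. Scaling by the median ratio brought the median of all genes near 0 in each comparison, and of the genes called, the share higher became 32.0%, against 44.2%, for RANKL and 74.8%, against 63.8%, for IL-3. No paired analysis was possible because each condition has 1 library. For the same reason variation between cultures and mice was not measured, and the depth limits *Tlr9* and *Tlr3* most.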
